A study of Mus musculus with 4 samples.

Results

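Tetraspanins are small membrane proteins that organise receptors, integrins and proteases into microdomains of the cell surface and of endosomes. Members bind partner proteins and each other side by side in the membrane, and on macrophages they take part in adhesion, cell fusion, receptor shedding and vesicle traffic. The 10 tetraspanins described here are Cd9, Cd37, Cd53, Cd63, Cd81, Cd82, Cd151, Tspan3, Tspan4 and Tspan14. Every probe whose platform annotation gave one of these symbols was taken, which came to 18 of the 45281 probes on the array. Of the 18 probes, 17 were detected well enough to be tested, and they represented all 10 genes.

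Expression was measured on Illumina bead arrays, which read the brightness of a probe on beads, in RNA of peritoneal macrophages. The Mac-Gata6 KO mice (2 arrays) carried a floxed Gata6, the gene of a transcription factor of these cells, and Cre driven from LysM, a locus active in myeloid cells and not in macrophages alone. The control mice are labelled only as control (2 arrays), so whether they carried Cre or the floxed allele is not stated. All 4 samples were untreated and came from C57BL/6 mice of 8 to 16 weeks. Nothing in the labels says that the replicates came from separate animals, so p-values measure only how far these arrays of a group lie apart, and that may be technical.

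Values below are log2 intensities after background correction and quantile normalization, and a change is the knockout minus the control mean on that scale. A probe was called changed when its Benjamini-Hochberg adjusted p, from the limma fit over the 16713 probes kept, was under 0.05. Of the probes kept, 10.7% were called, 5.06% as lower and 5.63% as higher. A probe's brightness depends on its sequence, so levels are compared between arrays and not between genes. Detected probes numbered 16140 to 16484 on the knockout arrays and 16096 to 16380 on the control arrays. The dimmer Gata6 probe was detected on 0 knockout and 2 control arrays. It was at least 1.74-fold lower in the knockout, the control mean being set against the lowest detected signal (limma adjusted p = 0.0160). Its normalized change was -1.03, and it passed in all 8 alternative settings that kept every array (-1.03 to -0.37). Without knockout 1 it changed by -0.86 and without knockout 2 by -1.20. Its place in the gene is not stated in the labels. The brighter Gata6 probe read 13.07 and 12.83 in the knockout and 13.77 and 13.66 in control, a change of -0.76 ± 0.16 (standard error of the fit, as after each ± below unless SD is given; adjusted p = 0.0333). That change did not pass without any 1 of the arrays (-0.91 to -0.63, adjusted p from 0.0707 to 0.144) or with no detection filter (0.0580), and whether the probe lies in the floxed stretch is not stated in the labels.

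Of the 10 tetraspanins, 3 fell, none rose and 7 did not pass, each judged by its brightest probe. Cd9 fell most, Cd81 next and Tspan4 least. At an unadjusted p under 0.05 the limma fit gave 4 lower and 2 higher, Cd82 being the added one below and Tspan3 and Tspan14 those above. No share of all probes was counted at that unadjusted p, so those counts have no background beside them. At the adjusted threshold 11.0% of the brightest probes of all 11628 genes and unnamed probes were called, 5.41% as lower and 5.59% as higher. The median log2 change of the 10 was -0.22, beside -0.0087 over all of these. In bulk RNA, fewer cells that express a gene and less of its RNA per cell cannot be told apart.

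Cd9 encodes a tetraspanin that associates with integrins and with the immunoglobulin-type proteins Ptgfrn and Igsf8, and that restrains fusion of macrophages in mice. Its single probe (ILMN_2725414) had raw intensities of 3847 and 4782 on the knockout arrays, against 26235 and 22570 on the control arrays. The normalized values were 11.89 and 12.12 in the knockout and 14.49 and 14.49 in control. Both knockout arrays lay far below both control arrays, and the gap was many times the distance within either group. Cd9 changed by -2.48 ± 0.15 (95% interval -2.86 to -2.11, adjusted p = 0.000398), which left 17.9% of the control signal. It passed in every alternative setting run, with changes from -2.49 to -2.44 on 4 arrays and from -2.62 to -2.41 with 1 array left out.

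Cd81, a close partner of Cd9 in the same membrane complexes and a subunit of the B cell coreceptor, also fell. Its probe (ILMN_2631093) had raw intensities of 4446 and 4783 in the knockout, against 15437 and 10487 in control. The normalized values were 12.12 and 12.12 in the knockout and 13.75 and 13.47 in control, so the groups did not overlap and the control arrays differed more than the knockout arrays. The change was -1.49 ± 0.16 (95% interval -1.88 to -1.10, adjusted p = 0.00298), which left 35.7% of the control signal. It too passed in every setting run, between -1.49 and -1.44 on 4 arrays and between -1.62 and -1.33 with 1 array left out.

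Tspan4, a tetraspanin that builds migrasomes, vesicular organelles that form on the retraction fibres of moving cells, had 3 probes that did not all move the same way. The brightest (ILMN_2490548) read 9.26 and 9.45 in the knockout, against 10.32 and 10.26 in control. It changed by -0.94 ± 0.15 (95% interval -1.30 to -0.57, adjusted p = 0.0134), which left 52.2% of the control signal. A dimmer probe (ILMN_2962584) read 5.70 and 6.55 in the knockout and 7.06 and 7.08 in control, a change of similar size but wider error (-0.94 ± 0.28, adjusted p = 0.0860). That probe passed in 5 of 8 alternative settings on 4 arrays. They were no background correction (-0.39, adjusted p = 0.0328), the authors' processed values (-0.42, 0.0284) and an offset of 50 (-0.68, 0.0318). The others were an intensity trend in the variance (-0.94, adjusted p = 0.0262) and the replicate number as a block (-0.94, 0.0445). The dimmest probe (ILMN_2615322) read 6.41 and 6.22 in the knockout and 5.82 and 6.10 in control, a change of 0.36 ± 0.17 in the opposite direction that did not pass (adjusted p = 0.246). All 3 probes carry the same transcript record in the annotation. The brightest probe no longer passed without control 1 (-0.91, adjusted p = 0.0669), without control 2 (-0.97, 0.0556) or without knockout 1 (-0.84, 0.0788), and it passed without knockout 2 (-1.04, 0.0453).

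**Figure D1:**
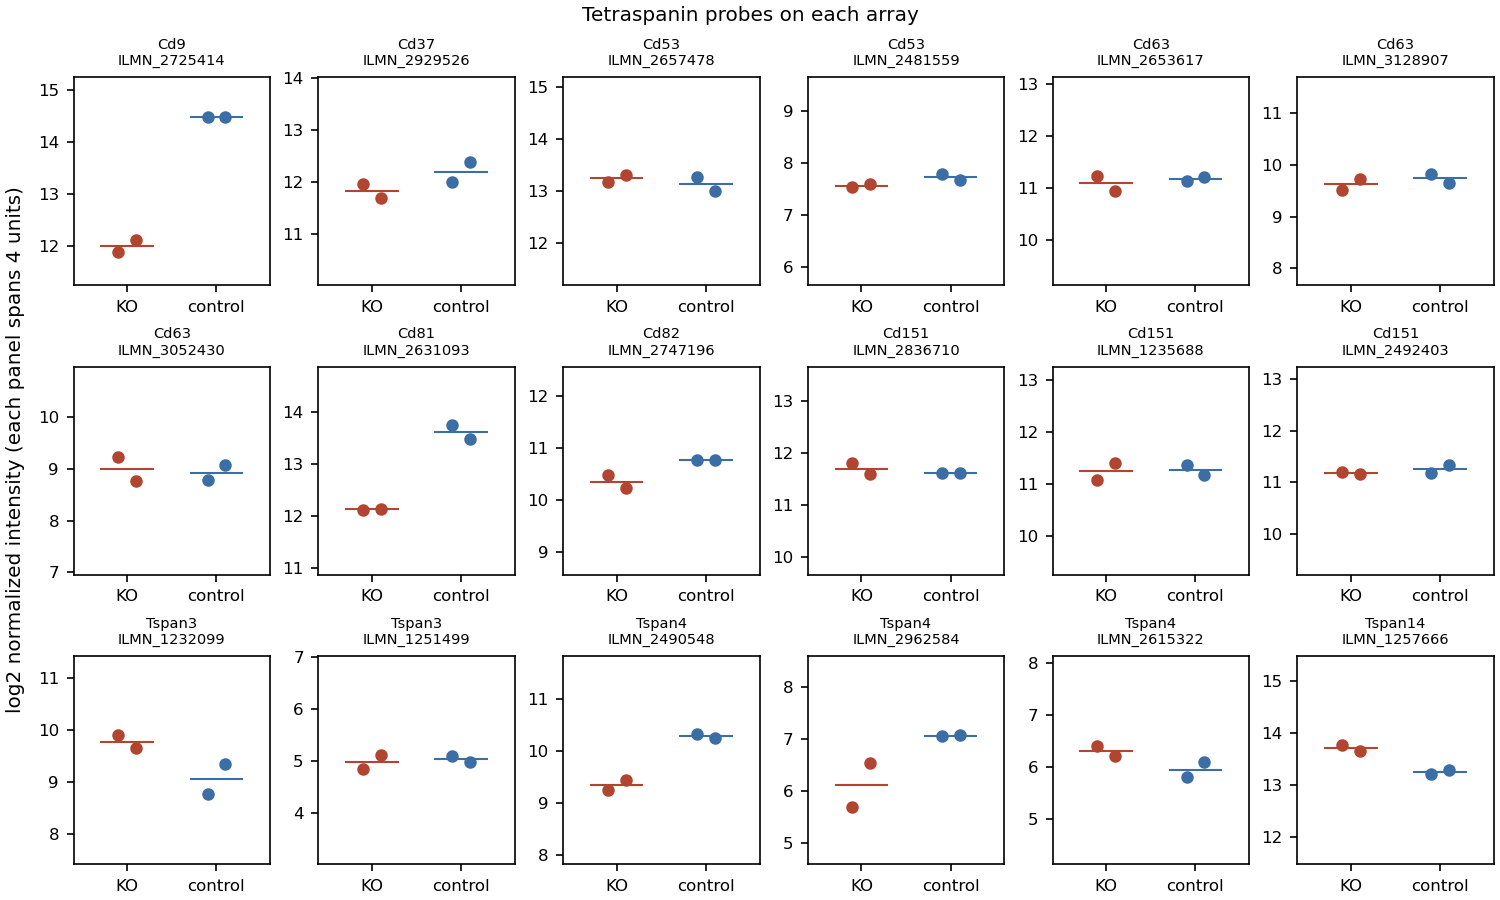
Log2 normalized intensity of all 18 tetraspanin probes on each array, knockout (KO) left of control, with points for arrays and lines for group means. Each panel spans 4 log2 units, so the gap of Cd9 (means 12.01 and 14.49) and of Cd81 (12.12 and 13.61) can be set against the small gaps of the Cd53, Cd63 and Cd151 probes.

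The sequences upstream of the 3 fallen genes are shown because these genes moved together. They are the 250 bases before each gene's most upstream start in the table of RefSeq promoters used here (GRCm38.p6), 5′ to 3′ on the gene's strand. Capitals mark GC boxes (GGGCGG on either strand).
Cd9, chr6:125494761-125495010, strand -: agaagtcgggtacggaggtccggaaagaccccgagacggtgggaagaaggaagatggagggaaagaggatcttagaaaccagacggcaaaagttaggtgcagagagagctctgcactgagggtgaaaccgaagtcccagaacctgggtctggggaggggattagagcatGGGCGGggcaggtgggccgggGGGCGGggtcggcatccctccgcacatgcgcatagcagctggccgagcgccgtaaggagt
Cd81, chr7:143052500-143052749, strand +: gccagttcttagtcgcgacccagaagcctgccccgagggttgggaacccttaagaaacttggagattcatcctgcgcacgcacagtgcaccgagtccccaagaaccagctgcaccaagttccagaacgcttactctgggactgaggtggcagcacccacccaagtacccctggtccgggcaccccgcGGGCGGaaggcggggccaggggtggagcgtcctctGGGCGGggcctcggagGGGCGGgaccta
Tspan4, chr7:141474986-141475235, strand +: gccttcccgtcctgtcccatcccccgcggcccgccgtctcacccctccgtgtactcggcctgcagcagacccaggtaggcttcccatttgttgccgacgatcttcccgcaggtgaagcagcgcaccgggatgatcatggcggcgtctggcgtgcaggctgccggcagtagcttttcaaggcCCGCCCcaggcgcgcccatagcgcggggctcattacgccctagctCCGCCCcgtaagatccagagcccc
The Cd9 window holds 2 GC boxes, that of Cd81 3 and that of Tspan4 2, and 7 of the 10 tetraspanins have at least 1, beside 32.7% of the 32851 windows in the table. Among the tetraspanins not called, the windows hold 22 CG dinucleotides for Tspan14, 14 for Tspan3 and for Cd82, and 12 for Cd151. Those of Cd37, Cd63 and Cd53 hold 8, 6 and 2. The windows of the fallen genes hold 16 for Cd9, 16 for Cd81 and 24 for Tspan4, so high counts were not particular to them. Over all windows the median is 6, and 74.6% hold fewer than 16. None of the 3 windows contains a GATA-type hexamer (AGATAA and AGATAG, and the same with T as the opening letter, on either strand).

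Such hexamers were found in the windows of 3 of the 10 tetraspanins, beside 26.5% of all windows in the table. They are those of Cd37, Cd53 and Tspan14, none of which was called, and each is shown with 12 bases to either side and the hexamer in capitals. Tspan32, a tetraspanin outside the 10 that is described below, is added because it rose and has 2.
Cd37, chr7:45238910-45238939, strand -: gaaccctgaagaAGATAGggcccccgctga
Cd53, chr3:106790158-106790187, strand -: aggaacagttgaCTATCTgagcctaagaga
Tspan14, chr14:40967065-40967094, strand -: tgggatgtgggcTGATAGcacagtggggcg
Tspan32, chr7:143004822-143004851, strand +: acaaaaatccagTTATCTtgggccaggcca
Tspan32, chr7:143004929-143004958, strand +: agggttgctgacAGATAGgaggacacaatg
The Cd37 hexamer and the second of Tspan32 lie inside the gene as the RefSeq gene table bounds it, which there reaches farther upstream than the start used, and the others lie outside. These are matches of letters in a short window, and no binding was measured. The hexamers overlapped no GC box.

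Tspan3 and Tspan14 had higher signal in the knockout without passing. Tspan14 belongs to the TspanC8 group, which escorts the protease ADAM10 to the surface and steers its choice of substrate. Its probe (ILMN_1257666) read 13.77 and 13.65 in the knockout, against 13.21 and 13.28 in control, so the groups did not overlap. The change was 0.46 ± 0.15 (95% interval 0.11 to 0.81, adjusted p = 0.107). Tspan3, a broadly expressed tetraspanin, read 9.90 and 9.65 in the knockout and 8.77 and 9.35 in control with its brighter probe (ILMN_1232099). Its change was 0.71 ± 0.23 (95% interval 0.16 to 1.27, adjusted p = 0.109), with the control arrays farther apart than the knockout arrays. The second Tspan3 probe (ILMN_1251499) was not detected on any array and was not tested.

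Cd82 and Cd37 had lower signal in the knockout without passing. Cd82, first known as a suppressor of metastasis, read 10.47 and 10.22 in the knockout and 10.76 and 10.77 in control (ILMN_2747196), a change of -0.42 ± 0.16 (95% interval -0.80 to -0.04, adjusted p = 0.157). Cd37, a leukocyte tetraspanin that binds the fungal receptor Clec7a, read 11.97 and 11.69 in the knockout and 12.01 and 12.38 in control (ILMN_2929526). The Cd37 groups lay next to each other without overlap, and its change of -0.37 ± 0.19 had a 95% interval of -0.83 to 0.10 (adjusted p = 0.295). Calls for Cd82, Tspan3 and Tspan14 depended on the setting. Of these only Tspan3 passed with an offset of 50 (adjusted p = 0.0372) and with a detection p under 0.01 asked on all 4 arrays (0.0422). All 3 passed without background correction (adjusted p = 0.0303, 0.00494 and 0.00844), with the authors' processed values (0.0352, 0.00531 and 0.0109) and with an intensity trend in the variance (0.0383, 0.00651 and 0.00340). In those settings 6 of 10 were called, 2 risen and 4 fallen. Of all 16713 probes, 2993, 2977 and 2951 were called there in place of 1786, so calls rose over the whole array too.

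Cd53, Cd63 and Cd151 showed small differences, and all of their probes failed to pass. Cd53, a leukocyte tetraspanin, read 13.17 and 13.31 in the knockout and 13.26 and 13.00 in control with its brighter probe, a change of 0.11 ± 0.16 (95% interval -0.29 to 0.51). Its dimmer probe changed by -0.16 ± 0.15. Cd63, the tetraspanin of late endosomes, lysosomes and exosomes, read 11.23 and 10.94 in the knockout and 11.12 and 11.20 in control with its brightest probe. Its 3 probes changed by -0.12 to 0.07, and the widest of their 95% intervals ran from -0.43 to 0.57. Cd151, which binds the laminin receptors that contain Itga3 or Itga6, read 11.80 and 11.58 in the knockout and 11.62 and 11.61 in control with its brightest probe. Its 3 probes changed by -0.07 to 0.08, and the outer bounds of their intervals were -0.45 and 0.45. For these genes a change as large as that of Cd81 lay outside every interval.

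**Figure D2:**
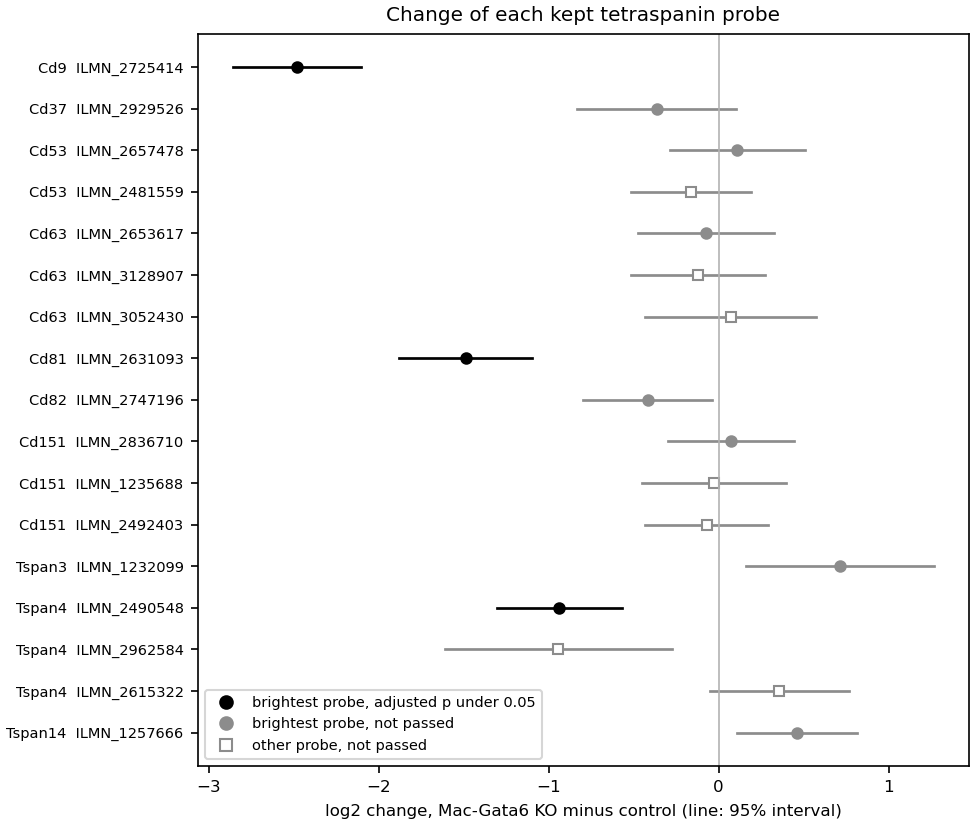
Log2 change (knockout minus control) of the 17 tested tetraspanin probes, with lines for 95% intervals. The intervals of Cd9, Cd81 and the brightest Tspan4 probe lie wholly below 0 and these probes passed, the intervals of the 3 Cd151 and 3 Cd63 probes span 0, and the dimmest Tspan4 probe points the other way.

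**Figure D3:**
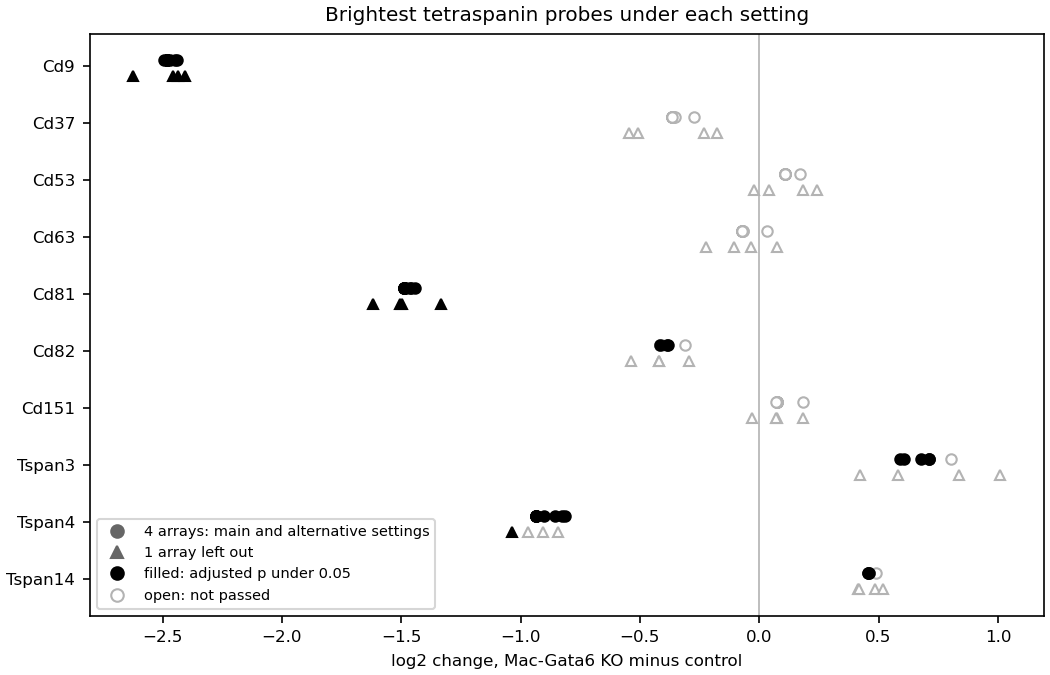
Log2 change (knockout minus control) of each gene's brightest probe, circles for settings that use 4 arrays and triangles for 1 array left out, filled where the adjusted p was under 0.05. Cd9 (-2.62 to -2.41 over the triangles) and Cd81 (-1.62 to -1.33) are filled throughout, Tspan4 is filled in 1 of its triangles, and Cd82, Tspan3 and Tspan14 are filled only among circles.

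In 10 of the 17 tested probes the knockout arrays lay on 1 side of both control arrays, beside 55.3% of all probes kept, so absence of overlap by itself was common. With 2 arrays in each group the fit draws its error partly from the spread of all probes.

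Cd9 had the largest change among the 10, and 3 genes had a pattern over the 4 arrays most like it, as measured by the root mean square distance between profiles centred on their means. They were Cd93 (distance 0.0449 on the log2 scale), a surface glycoprotein, Id2 (0.102), an inhibitor of basic helix-loop-helix transcription factors, and Ppm1e (0.106), a protein phosphatase. Their changes were -2.54 ± 0.15 for Cd93, -2.53 ± 0.20 for Id2 and -2.67 ± 0.16 for Ppm1e. Cd93 read 10.21 and 10.38 in the knockout, against 12.87 and 12.80 in control.

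Of the 21 other tetraspanins listed, 20 had a probe on the array and 5 had one that could be tested. The brightest probes of 14 were not detected on any array, among them Tspan5, Tspan10, Tspan15 and Tspan33 of the TspanC8 group. Tspan32, a tetraspanin of blood cells, rose. Its brighter probe (ILMN_2852672) read 11.21 and 11.28 in the knockout, against 10.19 and 10.30 in control, a change of 1.00 ± 0.15 (95% interval 0.64 to 1.35, adjusted p = 0.00915). Its dimmer probe was not well above background in control and was at least 1.21-fold higher in the knockout, the knockout mean being set against the lowest detected signal (adjusted p = 0.0210). The dimmer probe did not pass without control 1 or control 2 (adjusted p = 0.0975 and 0.0764) or, on 4 arrays, without background correction (0.0800), with the authors' processed values (0.0638) or with an intensity trend in the variance (0.0795). Without control 1, knockout 1 or knockout 2 the brighter probe just missed the threshold (0.94, 1.03 and 0.97, adjusted p = 0.0534, 0.0536 and 0.0549). In the RefSeq annotation Tspan32 and Cd81 are neighbours on chromosome 7 with 0 protein-coding genes between them, and they changed in opposite directions.

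Tspan17, another TspanC8 tetraspanin, had 3 probes that were all higher in the knockout, but only the dimmest passed. That probe (ILMN_2817717) read 8.05 and 8.15 in the knockout and 6.94 and 7.26 in control, a change of 1.00 ± 0.17 (adjusted p = 0.0155). It did not pass without control 1 (0.84, adjusted p = 0.0745), knockout 1 (1.05, 0.0756) or knockout 2 (0.95, 0.0805). The brightest Tspan17 probe changed by 0.28 ± 0.18 (adjusted p = 0.387). Tspan31, Upk1a and Tspan18, named after their values were seen, did not pass, at -0.10 ± 0.15, -0.52 ± 0.20 and -0.23 ± 0.40.

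Of 29 surface partners of tetraspanins on the array 20 were tested, of which 1 rose, 2 fell and 17 did not pass, with a median log2 change of -0.02. Over all brightest probes 11.0% were called, 5.59% as higher and 5.41% as lower, so with so few genes the count is near that share. Itga6, the laminin-binding integrin subunit that pairs with Cd151 and is also found with Cd9, read 7.69 and 7.67 in the knockout, against 12.96 and 12.99 in control. Its change was -5.30 ± 0.14 (adjusted p = 4.2e-05), while Cd151 itself, as given above, was not called. Itgb1, the shared partner chain of many integrins, read 9.11 and 9.17 in the knockout and 9.97 and 9.89 in control, a change of -0.79 ± 0.14 (adjusted p = 0.0200). It missed the threshold whichever array was removed (-0.84 to -0.75, adjusted p from 0.0741 to 0.102).

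Hbegf, the membrane-anchored growth factor that Cd9 binds, rose as Cd9 fell. It read 7.11 and 6.88 in the knockout, and 5.44 and 6.09 in control, where 1 of 2 arrays detected it. The change was 1.23 ± 0.24 (adjusted p = 0.0259), and it did not pass without control 1 (0.89, adjusted p = 0.0735), knockout 1 (1.11, 0.136) or knockout 2 (1.35, 0.0808), or with no detection filter (1.23, 0.0623). The change was 0.49 without background correction and 0.53 with the authors' processed values, and it passed in both (adjusted p = 0.00660 and 0.00513). The next members by p were Itgb2 (-0.46 ± 0.15), Itga4 (-0.51 ± 0.18) and Ifitm2 (0.44 ± 0.16), and these did not pass. Ptgfrn, the direct partner of Cd9 and Cd81, was not detected on any array. Igsf8, their other direct partner, read 7.58 and 7.68 in the knockout and 7.98 and 7.92 in control, and did not pass (-0.32 ± 0.15, adjusted p = 0.226). Igsf8 was chosen after its value was seen.

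Among intracellular partners and vesicle genes, 1 of 15 tested fell, 14 did not pass and none rose, with a median of 0.27, beside 11.0% called and a median of -0.0087 over all brightest probes. Rab27a, a small GTPase that docks secretory vesicles and vesicle-filled endosomes carrying Cd63, read 10.70 and 10.75 in the knockout, against 12.83 and 12.82 in control. It changed by -2.10 ± 0.14 (adjusted p = 0.000518). The syntenin gene Sdcbp, whose product binds Cd63, changed by 0.43 ± 0.16, and Tsg101 and Pdcd6ip, which sort cargo into endosomal vesicles, by 0.37 ± 0.14 and 0.34 ± 0.16. The lysosomal membrane genes Lamp1 and Lamp2 changed by 0.27 ± 0.15 and 0.27 ± 0.16. None of these 5 passed, and 10 of the 15 had a positive change, 2 of them at an unadjusted p under 0.05 in the limma fit. The share of all probes at that unadjusted p was not counted.

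ADAM10 and its substrates were listed because Tspan14 and Tspan17 escort that protease. Of 10 tested, 1 rose, 2 fell and 7 did not pass, with a median of 0.05, beside the same 11.0% and -0.0087. Cxcl16, a membrane-bound chemokine, read 9.39 and 9.65 in the knockout and 10.78 and 10.85 in control, a change of -1.30 ± 0.16 (adjusted p = 0.00506). Axl, a receptor kinase for uptake of dying cells, read 13.47 and 13.51 in the knockout and 12.53 and 12.47 in control, a change of 0.99 ± 0.14 (adjusted p = 0.00864).

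The Axl call was lost by a small margin without control 2, knockout 1 or knockout 2 (0.95, 1.02 and 0.97, adjusted p = 0.0509, 0.0515 and 0.0514). Notch1 changed by -0.65 ± 0.15 (adjusted p = 0.0446) and missed the threshold whichever array was removed (-0.74 to -0.56, adjusted p from 0.0917 to 0.17). It also did not pass with median scaling (-0.55, adjusted p = 0.0770), with no detection filter (-0.65, 0.0693), with the replicate number as a block (-0.65, 0.0753) or with crossed numbers as the block (-0.65, 0.0526). Efnb1 (0.56 ± 0.16), Lrp1 (-0.40 ± 0.16) and Trem2 (-0.36 ± 0.15) did not pass. Adam10 itself, the protease the list is named after, was detected on 3 of the 4 arrays and changed by 0.26 ± 0.27 (adjusted p = 0.624). Adam10 is named as that protease and not by its rank in p.

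**Figure D4:**
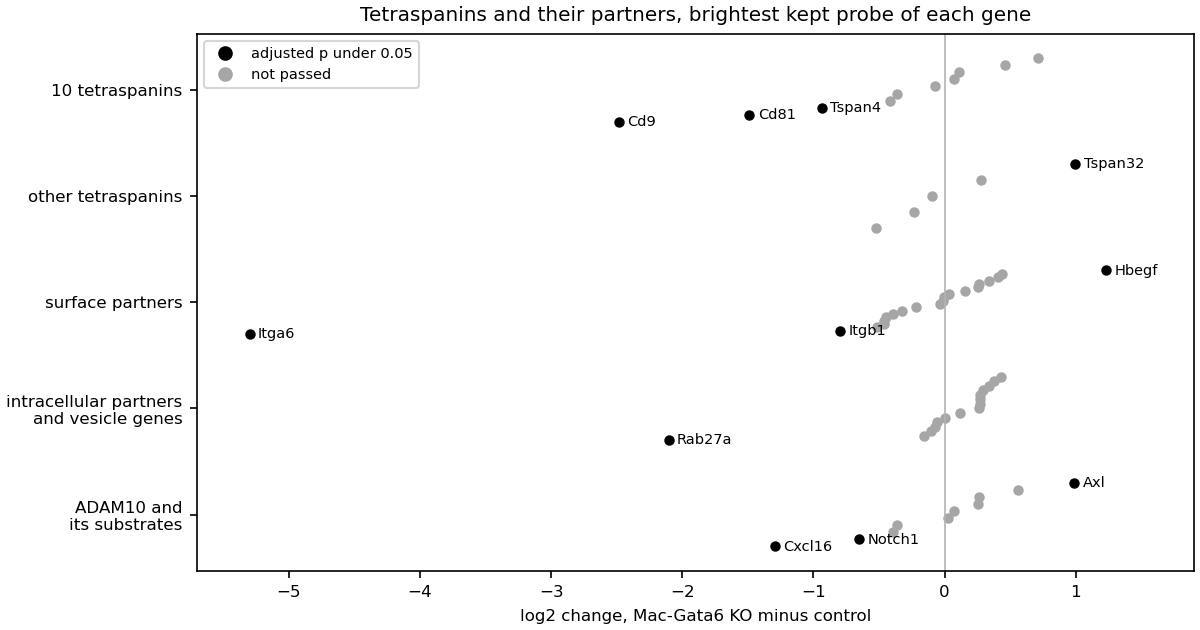
Log2 change (knockout minus control) of the brightest tested probe of each gene, for the 10 tetraspanins, 5 other tetraspanins and 3 partner lists, which share some genes. Black points are called genes and carry names, with Itga6 (-5.30), Cd9 (-2.48) and Rab27a (-2.10) farthest to the left and Hbegf (1.23) farthest to the right.

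Markers of macrophage subsets moved with the groups. The marker lists here and below were chosen with earlier results of these data known, so counts from them describe these arrays and test nothing. Of 13 tested markers of large peritoneal macrophages, the resident population, 8 fell and none rose, with Nt5e (-7.06), Itga6 (-5.30), Selp (-3.40) and Cd93 (-2.54) first by p. Gata6, the floxed gene itself, is among the 8. The 5 that did not pass were Icam2 (-0.56), Itgam (-0.44), Fcna (-0.11), Laptm5 (0.08) and Timd4 (-0.08), named after their values were seen. All 13 were detected on all 4 arrays. Over all brightest probes 5.41% were called lower and 5.59% higher. The summed linear signal of that list was 148872 to 149303 in the knockout, against 248617 to 251252 in control. Sums here and below add the brightest probe of every listed gene on the array, those not detected included. Where few genes of a list were detected, much of its sum is therefore signal of undetected probes. Of 13 tested markers of small peritoneal macrophages 10 rose and none fell, with Folr2 (4.35), Mrc1 (3.99), Fcrls (5.25) and H2-Eb1 (3.42) first by p. The 3 that did not pass were Irf4 (0.47), Retnla (0.29) and Lyz1 (0.08), named after their values were seen. Among those that rose, Ccr2 and Cd226 were detected on 0 control arrays. Clec4a2 of the same list was not detected on any array. The sum of that list was 202994 to 210127 in the knockout, against 91182 to 94451 in control. The part of these shifts in the changes of Cd9, Cd81, Tspan4 and Tspan32 was not tested.

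Other cells of the peritoneum carry tetraspanins too, Cd37, Cd53 and Cd81 on B cells and Cd9 on platelets among them. Of 7 tested B cell markers 5 rose and none fell, with Fcrla (1.69), Pou2af1 (1.39), Blk (1.12) and Fcmr (1.04) first by p. Over all brightest probes 5.59% were called higher and 5.41% lower. The 2 B cell markers that did not pass were Bank1 (-0.19) and Cd22 (0.21), named after their values were seen. The summed signal of all listed B cell markers on the array was 2750 to 2998 in the knockout, against 1834 to 1961 in control. That sum includes Pax5, Ebf1, Cr2 and Vpreb3, which were not detected on any array. Of 2 tested platelet markers neither passed, and Itga2b, Gp5, Gp9 and Ppbp were not detected on any array. Those 2 were Pf4 (-0.03) and Treml1 (-0.29), named after their values were seen. The platelet sums overlapped, at 31087 to 34914 in the knockout and 30548 to 37188 in control. They were almost all Pf4, which read 14.91 and 15.08 in the knockout and 15.17 and 14.88 in control. Treml1 read 6.34 and 6.51 in the knockout and 6.59 and 6.83 in control, so the sums describe 1 gene and not a set of platelet markers.

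The counts in this paragraph stand beside 5.59% called higher and 5.41% called lower over all brightest probes. Of 5 tested mast cell markers Cpa3 rose (0.71) and Hdc fell (-4.32), with a sum of 580 to 637 in the knockout, against 1451 to 1495 in control. Hdc alone carried that difference, since without it the sum was 518 to 590 in the knockout, against 394 to 416 in control. Kit, Gata2, Ms4a2 and Tpsab1 were not detected on any array. Of 4 tested erythroid markers 3 rose and none fell, Hbb-bs at least 5.72-fold, Hba-a1 at least 5.11-fold and Hbb-bt by 1.74 on the log2 scale, with a sum of 1032 to 1037 in the knockout, against 341 to 351 in control. Of 3 tested neutrophil markers Mmp9 rose (1.81) and S100a8 (-1.07) and Csf3r (-0.74) fell, with a sum of 7032 to 7902 in the knockout, against 8263 to 8435 in control, and S100a9, Ltf and Ngp were among 5 not detected. Of 3 tested dendritic cell markers Ccr7 (at least 1.17-fold) and Batf3 (0.81) rose, with Flt3, Zbtb46, Itgax and 4 more not detected and a sum of 658 to 740 in the knockout, against 502 to 509 in control. Of 2 tested T and NK cell markers Cd2 rose (2.08), with Cd3d, Cd3e, Cd3g and 5 more not detected and a sum of 639 to 695 in the knockout, against 393 to 408 in control. The 1 eosinophil marker tested did not pass, with 6 not detected and sums of 232 to 237 in the knockout and 235 to 236 in control, and of 10 mesothelial and stromal markers none could be tested, with 9 not detected on any array. The part of any of these cells in the tetraspanin values was not tested.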

How the data were processed

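The members and lists were chosen with earlier results of these data known. The authors deposited non-normalized intensity values of every probe beside their detection p-values, as the file headers name them, and a second table of processed intensity values on a linear scale, not centred, with column medians of 142.05 to 142.14. No label or header names the software behind them. After 1349 blank lines were removed, every column of per-sample values was used.

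Intensities were background corrected from the detection p-values, given an offset of 16, quantile normalized and turned to log2 with neqc of limma 3.58.1 (R 4.3.3). Probes with a detection p-value under 0.05 on at least 2 arrays were kept (16713). Two-sided tests of knockout minus control came from lmFit and eBayes over all kept probes, with no block. Procedures were tested on simulated data. The number of arrays limits precision. Of 45281 probes, 34885 had 1 gene symbol, 18 several and 10378 none, and 34807 matched the RefSeq table (GRCm38.p6) by gene identifier, with 0 symbols changed. A gene is given by its brightest kept probe, by mean log2 value. Named genes were all members, called other tetraspanins, up to 6 members with the smallest p of each partner list and up to 4 called markers of each marker list. Genes outside that rule are marked where named. Alternatives covered the detection filter, background correction, offset, scaling, use of the authors' values, the replicate block, the variance model, 1 probe per gene and leaving out each array. Replicate numbers pair no samples in the labels, and across probes the deviations from group means of arrays that share a number had a correlation of -0.14.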

Additional observations from a re-analysis of the deposited data

How the results depend on the processing

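Cd9 and Cd81 kept their direction and passed in every setting run, and Tspan4 in those that kept 4 arrays. Probes called, 1786 in the main setting, numbered 2993 without background correction, 2977 with the authors' values, 2951 with a robust variance that follows intensity, and 646 to 884 with 1 array left out, where the lone array is assumed to vary like the other group and fewer degrees of freedom remain. In the first 3 of these settings 6 tetraspanins were called in place of 3, and 7 surface partners in place of 3. Intracellular partners called were 3, 2 and 2 there, in place of 1. With an offset of 50, and with a detection p under 0.01 asked on all 4 arrays, 4 tetraspanins were called, 1 of them as higher (Tspan3). Probes called there were 2425 of 16713 and 1939 of 12424. With 1 array left out, calls numbered 2 to 3 tetraspanins, 0 to 1 other tetraspanins, 1 to 2 surface partners and 1 to 2 of the ADAM10 list, in place of 3, 1, 3 and 3. Among member probes direction turned only where nothing was called. With median scaling 2 Cd151 probes stood at 0.083 and 0.024 and a Cd63 probe at 0.031. With 1 array left out, Cd151 probes ran from -0.18 to 0.13, from -0.029 to 0.18 and from -0.16 to 0.0095, Cd63 probes from -0.22 to 0.075 and from -0.16 to 0.30, and Cd53 from -0.023 to 0.24. The cause was not tested. Of the values of the 17 member probes in settings with 4 arrays, 142 kept direction and side of the threshold, 16 gained it and 3 turned. The replicate number as a block gave 1591 probes called and 3 tetraspanins, kept the direction of each member probe and lost Notch1 (-0.65, adjusted p = 0.0753), while the dimmer Tspan4 probe passed (-0.94, 0.0445). Numbers pair no samples here, and pairing them crosswise, an alternative added after seeing the data, gave 1767 probes and 3 tetraspanins. Signal close to background limits the dimmer Gata6, Tspan4 and Tspan32 probes, and Hbegf in control. The called Tspan17 probe had a detection p under 0.01 on all 4 arrays, but its change was 0.59 without background correction.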

Other observations

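The MS4A proteins also cross the membrane repeatedly but are not tetraspanins, and were looked at after the tetraspanin values were seen. Of 17 such genes on the array 3 were tested and none passed in the limma fit, with adjusted p from 0.0783 to 0.377. Over all brightest probes 11.0% were called. In the same fit 2 of the 3 had an unadjusted p under 0.05 (0.0113 for Ms4a6d and 0.0127 for Ms4a6c). The 11.0% is for the adjusted p, and the share at the unadjusted p was not counted. Ms4a6d read 13.63 and 13.66 in the knockout and 13.10 and 13.18 in control, Ms4a6c 7.23 and 7.82 in the knockout and 6.58 and 6.86 in control, and Ms4a8a 13.20 and 13.31 in the knockout and 13.42 and 13.56 in control. Both Ms4a6 genes read higher on each knockout array than on either control array, and Ms4a8a lower, but 55.3% of all probes kept showed no overlap either.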
